A study of Homo sapiens and Mus musculus with 25 samples.

Results

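The genes described here encode ligands by which natural killer (NK) cells recognise a target cell, and they were read in K562, an established human leukaemia cell line that is a standard target of NK cells in killing assays. The set was given by name, as 10 of the 19962 protein-coding genes read, under a rule that uses no measured value. MICA and MICB lie beside the HLA genes on chromosome 6, ULBP1, ULBP2, ULBP3, RAET1E, RAET1G and RAET1L form a cluster elsewhere on chromosome 6, NCR3LG1 lies on chromosome 11 and PVR on chromosome 19. All 10 were found in the annotation.

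The study mapped methylation of lysine 4 of histone H3 (H3K4) by ChIP-seq with an internal calibration: nucleosomes carrying a known mark are added to the chromatin before the immunoprecipitation. Each antibody gave 1 list of peaks on GRCh38, from 8 antibodies raised against H3K4me3, 4 against H3K4me2 and 5 against H3K4me1, with 1 list each for H3K27me3 and H3K9me3. The authors also deposited 3 corrected lists (H3K4me3, H3K4me2 and H3K4me1), in which off-target capture was removed by calculation from 4 Abcam libraries. All the lists come from K562 cells for which the labels give no treatment or genetic change. The labels name no separate cultures, so the spread and the p-values below are between antibodies and not between biological replicates.

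MICA, MICB and the proteins of the ULBP/RAET1 family are surface molecules related to class I HLA that bind NKG2D, an activating receptor of NK cells and cytotoxic T cells. NCR3LG1 encodes B7-H6, a ligand of the NKp30 receptor, and PVR encodes the poliovirus receptor CD155, which binds the activating receptor DNAM-1 and the inhibitory receptor TIGIT. Such ligands are known to be scarce on most healthy cells and to appear with infection, stress or transformation. H3K4me3 classically marks active and poised promoters, H3K4me1 marks enhancers and promoter flanks, H3K4me2 occurs at both, and H3K27me3 is the mark of Polycomb repression.

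The promoter of each gene was read as the window of 1 kb either side of the start of its canonical transcript, and its value was the percent of the window's 2001 bases under a peak. Upstream sequences of 6 genes are shown because their starts fell on opposite sides of the H3K4me3 results. Each runs 5′ to 3′ on the strand of the gene and holds the 250 bases before the canonical start, with CpG dinucleotides in capitals. They are from the RefSeq promoter table (GRCh38.p14), which matched 10 of the 10 genes, and lie at chr6:31403345-31403594 (MICA, plus strand), chr6:31497895-31498144 (MICB, plus), chr6:149941764-149942013 (ULBP2, plus), chr6:150069122-150069371 (ULBP3, minus), chr6:149898114-149898363 (RAET1E, minus) and chr6:150025533-150025782 (RAET1L, minus).
MICA: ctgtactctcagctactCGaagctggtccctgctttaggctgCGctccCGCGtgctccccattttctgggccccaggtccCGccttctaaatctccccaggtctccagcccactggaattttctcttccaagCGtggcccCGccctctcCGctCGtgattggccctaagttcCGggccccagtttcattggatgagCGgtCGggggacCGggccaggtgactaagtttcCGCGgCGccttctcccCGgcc
MICB: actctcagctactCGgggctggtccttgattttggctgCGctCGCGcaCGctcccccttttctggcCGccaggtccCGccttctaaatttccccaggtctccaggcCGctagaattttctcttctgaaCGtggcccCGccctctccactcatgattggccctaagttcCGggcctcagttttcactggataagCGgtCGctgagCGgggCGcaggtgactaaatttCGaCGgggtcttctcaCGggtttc
ULBP2: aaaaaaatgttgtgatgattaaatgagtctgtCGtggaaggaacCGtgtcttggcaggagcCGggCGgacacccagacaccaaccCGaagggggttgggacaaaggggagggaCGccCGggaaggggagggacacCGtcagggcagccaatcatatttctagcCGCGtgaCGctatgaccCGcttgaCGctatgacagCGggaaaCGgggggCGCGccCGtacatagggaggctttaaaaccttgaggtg
ULBP3: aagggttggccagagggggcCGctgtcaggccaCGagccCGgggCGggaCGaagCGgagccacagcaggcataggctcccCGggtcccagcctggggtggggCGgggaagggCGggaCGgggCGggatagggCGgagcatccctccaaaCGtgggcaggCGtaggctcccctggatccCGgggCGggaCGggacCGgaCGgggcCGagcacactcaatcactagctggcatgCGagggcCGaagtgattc
RAET1E: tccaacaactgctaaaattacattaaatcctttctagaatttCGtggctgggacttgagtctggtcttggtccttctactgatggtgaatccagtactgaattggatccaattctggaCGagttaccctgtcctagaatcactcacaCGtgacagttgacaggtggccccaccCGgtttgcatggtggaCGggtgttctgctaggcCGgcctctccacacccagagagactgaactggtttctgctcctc
RAET1L: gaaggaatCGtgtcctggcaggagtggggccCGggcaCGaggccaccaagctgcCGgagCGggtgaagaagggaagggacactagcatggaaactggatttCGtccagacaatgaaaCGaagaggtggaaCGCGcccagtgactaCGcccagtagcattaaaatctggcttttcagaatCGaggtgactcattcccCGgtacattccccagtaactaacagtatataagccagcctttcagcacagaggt

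The canonical MICA and MICB promoters were the most alike pair, with 82.7% identity over 254 aligned columns. No other pair of the 10 genes exceeded 56.1% (ULBP2 and RAET1G). RAET1E held 6 CpGs, RAET1G 8 and RAET1L 12 in these 250 bases, against a median of 19 over the 15315 promoters of the RefSeq table. MICA held 17, MICB and ULBP2 18 each, ULBP1 20, ULBP3 22, PVR 27 and NCR3LG1 28. The GC box GGGCGG, searched on both strands, matched in 7 of the 10 upstream sequences and in 59.5% of all promoters of that table, and the CCAAT box CCAAT in 5 of the 10 and 34.9%. An AP-1 site TGANTCA matched in RAET1L alone of the 10 and in 4.79% of all. No match was found in the 10 for the cAMP response element TGACGTCA (2.48%) or the TATA box TATAAA (9.10%), which says only that these letters are not in these windows.

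Of the 22 lists, the H3K4me3 lists differed most over these genes. Per list, 6.88 ± 2.53 of the 10 promoters held an H3K4me3 peak (SD, n = 8 antibodies), against 54.9% ± 13.8 of all protein-coding promoters. H3K4me2 peaks were at 9.75 ± 0.50 of the 10 (n = 4), against 76.0% ± 7.12 of all promoters, and H3K4me1 peaks at all 10 in each of the 5 lists, against 78.0% ± 5.16 of all. The H3K4me3 lists with all 10 were Abcam ab8580 (75.3% of all promoters) and EMD Millipore 07-473 (69.6%), which hold 721215 and 233923 peaks, where the other 6 H3K4me3 lists hold 13311 to 33922. EMD Millipore 05-745R had 9 of the 10 (57.8% of all promoters). The number was 6 each for Thermo Fisher PA5-40086 (53.4%), Abclonal A2357 (58.0%) and Abcam ab12209 (51.7%), 5 for Diagenode C15410003 (40.2%) and 3 for EpiGentek A-4033-050 (33.5%). These last were the only H3K4 libraries run beside a second input (AR17), and their lists also held peaks at the fewest promoters of all genes. Among the H3K4me2 lists, EMD Millipore 05-1338 had 9 of the 10 (68.0% of all promoters), while Abcam ab7766 (76.9%), Cell Signaling Technologies 9725 (85.1%) and Thermo Fisher 710796 (73.9%) had all 10. The H3K4me1 lists, with all 10 each, were Abcam ab8895 (76.1% of all promoters), Active Motif 39635 (70.7%), Cell Signaling Technologies 5326 BF (81.3%), EpiGentek A-4031-050 (84.2%) and Thermo Fisher 710795 (77.8%). The part of that input in these counts was not tested.

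**Figure D1:**
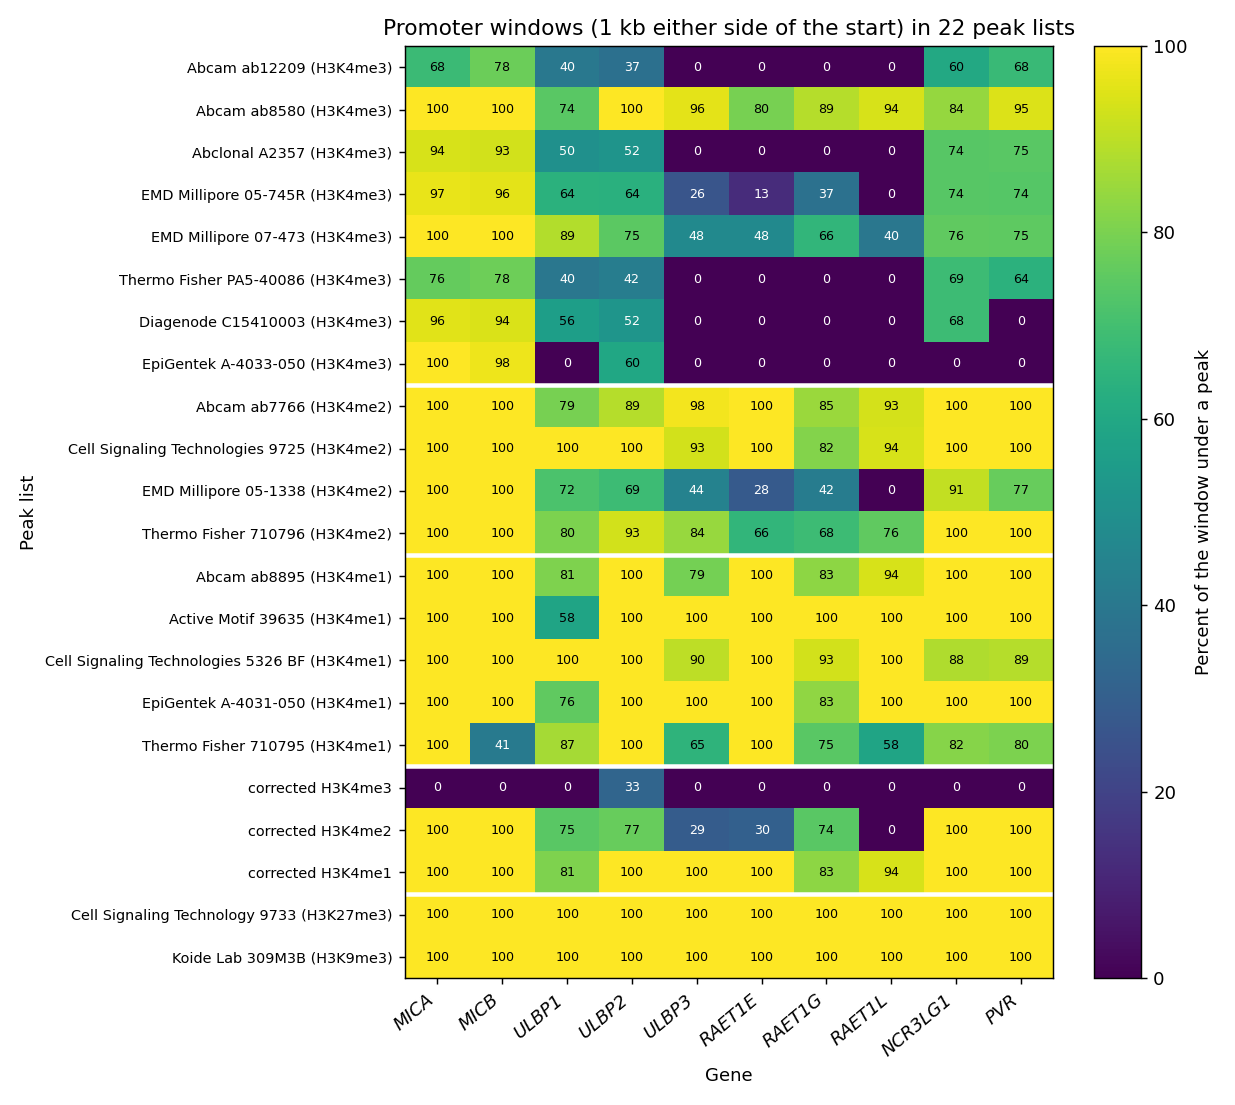
Percent of each promoter window (1 kb either side of the canonical start) under a peak, for 10 genes (columns) in 22 peak lists (rows, grouped by target, with H3K4me3 on top). ULBP3, RAET1E, RAET1G and RAET1L are at 0 in 5 or 6 of the 8 H3K4me3 rows, the corrected H3K4me3 row is at 0 for every gene but ULBP2, and the H3K27me3 and H3K9me3 rows are at 100 throughout.

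By H3K4me3 the genes fell into those found by most of the antibodies and those found by few. At least 5 of the 8 H3K4me3 lists held a peak at 6 of the 10 promoters (MICA, MICB, ULBP1, ULBP2, NCR3LG1 and PVR), against 52.9% of all promoters. MICA, MICB and ULBP2 had one in all 8 lists, which 31.1% of all promoters did, and the same 3 genes had one in all 17 H3K4 lists (27.9% of all). These counts are near the shares over all promoters, so they do not set the 10 genes apart. ULBP3, RAET1E and RAET1G had an H3K4me3 peak in 3 lists each and RAET1L in 2, although all 4 had H3K4me1 peaks in all 5 lists. RAET1L was missed by 1 of the 4 H3K4me2 lists, EMD Millipore 05-1338. A promoter in 2 or fewer H3K4me3 lists but in all 9 of the others was uncommon, at 4.12% of all promoters, and none of the 10 genes met that description in full.

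MICA, the first of the MIC pair, was covered at 68.0% to 100% of its window by the 8 H3K4me3 antibodies, with a median of 96.2%, and wholly by every H3K4me2 and H3K4me1 antibody. MICB ranged from 77.7% to 100% with a median of 95.1% for H3K4me3. All 4 H3K4me2 antibodies covered the MICB window wholly, and so did 4 of the 5 H3K4me1 antibodies, while Thermo Fisher 710795 covered 41.0%. The 3 targets overlapped at both genes. The mean H3K4me3 minus H3K4me1 difference was -8.65 percentage points for MICA (exact two-sided permutation test over antibodies with Benjamini-Hochberg adjustment over all 19962 promoters, adjusted p = 0.161) and 3.84 for MICB (adjusted p = 0.910 by the same exact test). Neither sign held under every alternative. With the start at the annotated 5′ end of the gene the difference was 22.00 for MICA (adjusted p = 0.132, exact permutation test) and -3.04 for MICB. The MICB difference was also -7.96 without Thermo Fisher 710795, and with a window of 2.5 kb either side it was -33.22 and passed (adjusted p = 0.0326, exact permutation test). With that window all the genes of the set passed, MICA among them, and 11208 of all promoters were lower, so the pass is not particular to MICB.

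ULBP2, an NKG2D ligand held to the membrane by a lipid anchor, was covered at 37.1% to 100% by H3K4me3 antibodies (median 55.7%). H3K4me2 antibodies covered 88.7%, 100%, 68.7% and 93.0% of it, and all 5 H3K4me1 antibodies covered it wholly. Only Abcam ab8580 among the H3K4me3 lists reached the H3K4me1 level. Coverage averaged 60.2% ± 20.0 for H3K4me3 and 100% for H3K4me1 (SD, n = 8 and 5), a difference of -39.81 points (exact permutation test, adjusted p = 0.0346).

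ULBP1, which lies next to ULBP2 and encodes another such ligand, ranged from 0 in EpiGentek A-4033-050 to 88.6% in EMD Millipore 07-473 for H3K4me3, with a median of 53.0%. Its H3K4me2 values were 79.4%, 100%, 71.7% and 80.3%, and its H3K4me1 values 80.8%, 58.5%, 100%, 75.5% and 86.7%. The targets overlapped, with EMD Millipore 05-745R, Abcam ab8580 and EMD Millipore 07-473 (63.8%, 74.5% and 88.6%) above the lowest H3K4me1 value. The H3K4me3 minus H3K4me1 difference of -28.68 points did not pass (exact permutation test, adjusted p = 0.0853).

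The other 4 genes of the cluster had a median H3K4me3 coverage of 0. ULBP3 was covered at 95.8% by Abcam ab8580, 47.6% by EMD Millipore 07-473 and 26.5% by EMD Millipore 05-745R, and at 0 by the other 5, against 79.1%, 100%, 90.2%, 100% and 64.9% by the H3K4me1 antibodies. RAET1E, whose product ULBP4 spans the membrane, had 79.5%, 47.6% and 12.7% in the same 3 H3K4me3 lists and 100% in every H3K4me1 list. At the RAET1E start itself 0 of the 8 H3K4me3 lists had a peak. In those 3 lists the peak with the most overlap lay downstream of the start. For RAET1G, which encodes ULBP5, those H3K4me3 lists gave 88.7%, 66.0% and 37.4%, and the H3K4me1 lists 74.6% to 100%. RAET1L, which encodes ULBP6, had 94.0% in Abcam ab8580 and 39.8% in EMD Millipore 07-473, against 94.0%, 100%, 100%, 100% and 58.3% for H3K4me1. The only H3K4me3 list that reached H3K4me1 levels at ULBP3, RAET1G and RAET1L was Abcam ab8580, and at RAET1E the 2 targets did not overlap.

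All 4 were lower in H3K4me3 than in H3K4me1. The differences were -82.53 points for RAET1E (exact permutation test, adjusted p = 0.0115), -73.74 for RAET1L (adjusted p = 0.0252) and -65.59 and -62.83 for ULBP3 and RAET1G (adjusted p = 0.0318 for each), by the same exact test. Mean H3K4me3 coverage was 16.7% ± 34.2 at RAET1L to 24.0% ± 35.9 at RAET1G (SD, n = 8). Abcam ab8580 and EMD Millipore 07-473 made up most of these means, and over the other 6 antibodies coverage was 4.42% for ULBP3, 2.12% for RAET1E, 6.23% for RAET1G and 0 for RAET1L, in a comparison chosen after the data were seen. Over those 6, MICA kept a mean of 88.5%, MICB 89.4%, NCR3LG1 57.5%, ULBP2 51.1%, PVR 46.7% and ULBP1 41.6%.

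NCR3LG1 ranged from 0 in EpiGentek A-4033-050 to 84.3% in Abcam ab8580 for H3K4me3 (median 71.2%), against 100%, 100%, 88.0%, 100% and 81.9% for H3K4me1. PVR had no peak in Diagenode C15410003 or EpiGentek A-4033-050 and reached 94.8% in Abcam ab8580 (median 70.7%), against 100%, 100%, 89.0%, 100% and 80.2% for H3K4me1. In both genes the highest H3K4me3 value overlapped the H3K4me1 range and the remaining ones lay under it. H3K4me3 was lower than H3K4me1 by a difference of -30.84 points at NCR3LG1 (means 63.1% ± 26.4 and 94.0% ± 8.53, exact permutation test, adjusted p = 0.0189) and of -37.59 points at PVR (means 56.3% ± 35.9 and 93.8% ± 8.99, adjusted p = 0.0346 by the same exact test). The NCR3LG1 window also holds the start of a long non-coding RNA (ENSG00000285545) 97 bases away, so peaks there cannot be assigned to 1 of the 2 genes.

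**Figure D2:**
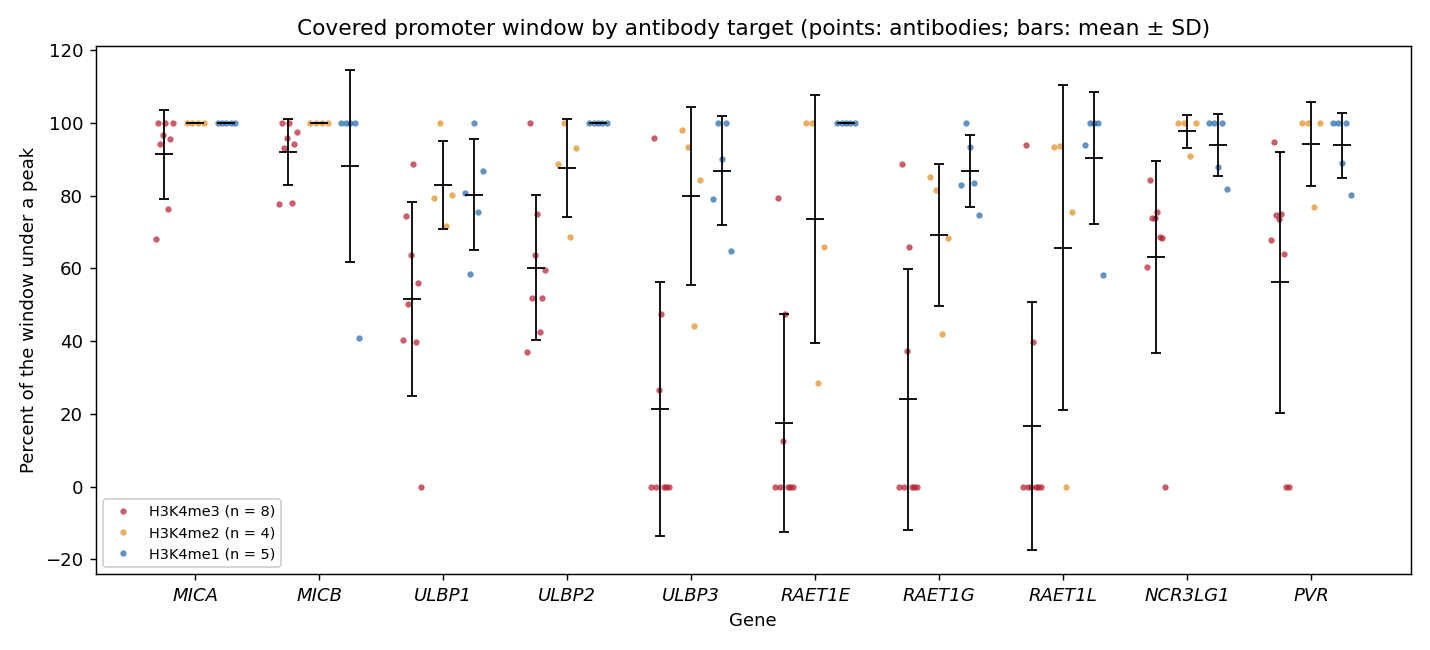
Percent of the promoter window under a peak for each gene, with 1 point per antibody (H3K4me3 left, H3K4me2 in the middle, H3K4me1 right) and bars for the mean ± SD, which can pass the limits of 0 and 100. H3K4me3 points run from 0 to 95.8 at ULBP3 while the H3K4me1 points there lie between 64.9 and 100, and the 3 targets overlap at MICA and MICB.

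In all, 7 of the 10 genes were lower in H3K4me3 than in H3K4me1 and 0 were higher, where 26.5% of all promoters were lower and 11.3% higher at the same threshold (adjusted p under 0.05). Among the 18234 promoters with a peak in either target, 29.1% were lower. The median difference was -38.70 points over the 10 genes and -7.55 over all promoters. The smallest p that 8 against 5 antibodies allow is 0.00155. Leaving out 1 H3K4me3 library (Thermo Fisher PA5-40086, Diagenode C15410003, EMD Millipore 05-745R, Abclonal A2357 or Abcam ab12209) left 3 of the genes past the threshold, with 2687 to 2711 of all promoters lower in these fits, against 5298 with every library. Of the H3K4me1 libraries, Active Motif 39635, Cell Signaling Technologies 5326 BF and Abcam ab8895 also left 3 when taken out, with 3128, 2478 and 2534 of all promoters lower. The number was 4 without Thermo Fisher 710795 (3094 promoters) and 2 without EpiGentek A-4031-050 (2653 promoters). RAET1E and NCR3LG1 passed in each of these. A fit with fewer antibodies also has a larger smallest p, so a lost call there can come from the design. With libraries beside the AR16 input alone 2 passed (RAET1E and NCR3LG1), with 2343 of all promoters lower, and with a window of 0.5 kb either side 3 passed (ULBP3, RAET1E and RAET1L), with 3829 lower. With libraries of 8 amplification cycles alone 0 genes and 0 of all promoters passed. The smallest p the design allows in that exact permutation test is 0.00794, so this fit says nothing of these genes. Libraries of 12 cycles occurred among the H3K4me3 antibodies but not among the H3K4me1 ones, so cycle number cannot be fully told apart from target.

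Set against H3K4me2, H3K4me3 coverage was lower in the mean at all 10 genes, with a median difference of -36.28 points against -19.05 over all promoters, but 0 of the 10 and 0.00% of all promoters passed the exact permutation test. At an unadjusted p under 0.05, 6 of the 10 genes and 4994 of all promoters were below the threshold, and the smallest adjusted p among the genes was 0.160. Without Abcam ab8580 and EMD Millipore 07-473, the pair left out after their values were seen, 8 of the 10 genes and 5460 of all promoters passed. H3K4me2 against H3K4me1 likewise gave 0 calls among the genes and 0.00% among all promoters, with 0 genes and 2079 promoters at an unadjusted p under 0.05, and a median difference of -3.41 points against 4.70 over all promoters. The smallest p the exact test allows is 0.00404 for H3K4me3 against H3K4me2 and 0.0159 for H3K4me2 against H3K4me1. With so few antibodies, 0 calls after adjustment do not show that the marks are alike. Over the genes, the median of the mean coverage was 53.9% for H3K4me3, 85.2% for H3K4me2 and 92.2% for H3K4me1, against 41.5%, 81.7% and 67.0% over all promoters.

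Where an H3K4me3 peak was present, its shape differed between the genes. At ULBP2 and ULBP1 the Abcam ab12209 peaks were 743 and 804 bases wide, reaching 454 and 590 bases upstream of the start and 288 and 213 bases downstream. At PVR the peak of that list was 1382 bases wide and lay mostly downstream (355 bases up, 1026 down). The NCR3LG1 peak ran into the gene, with 207 bases upstream and 2801 downstream, and the 7 H3K4me3 lists with a peak there gave widths of 3009 to 5007 bases. Its width in the Abcam ab12209 list exceeded that of 92.2% of the peaks of the list, while the authors' value for it, a signal score that is comparable within a list only, exceeded 50.1%.

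**Figure D3:**
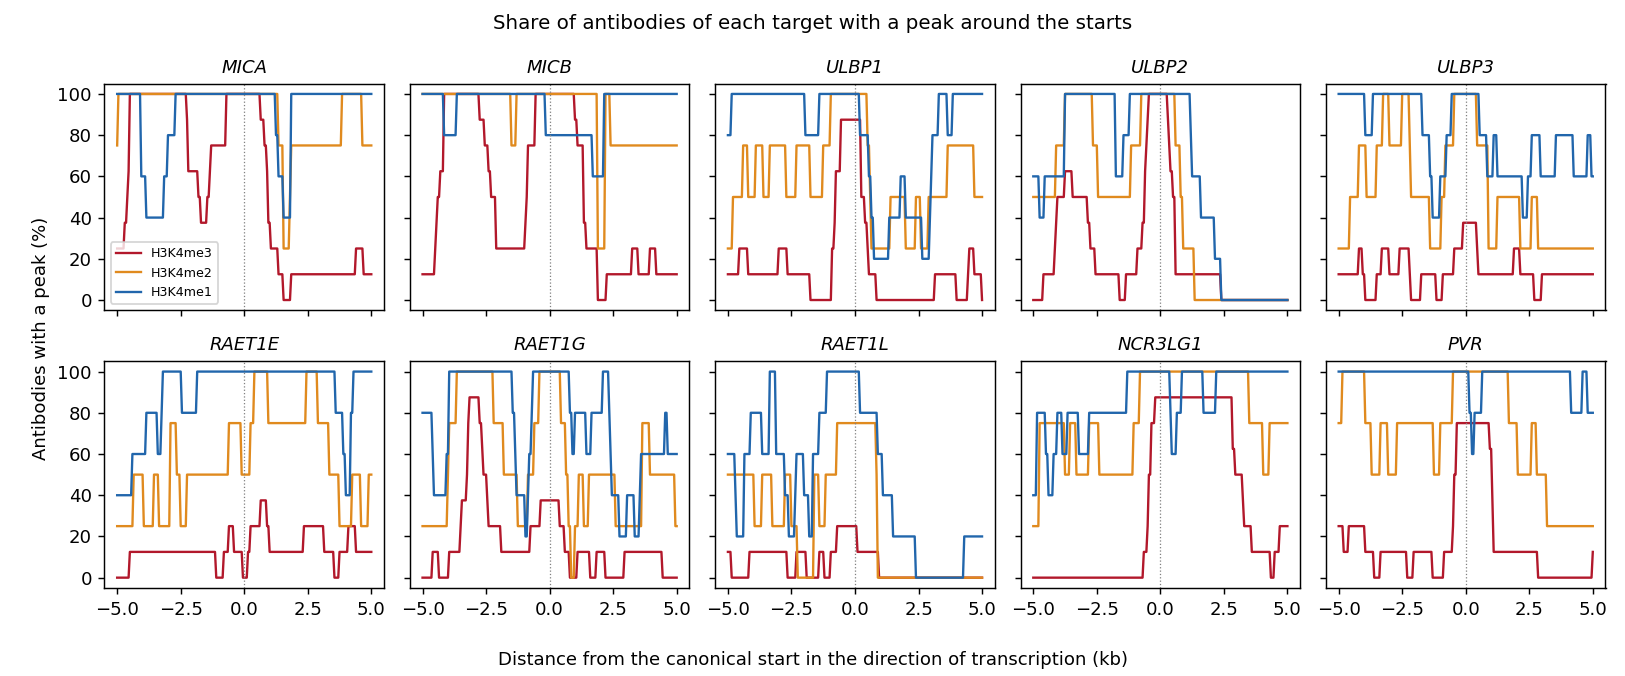
Percent of the antibodies of each target with a peak at each position within 5 kb of the canonical start (horizontal axis in kb, direction of transcription to the right) for the 10 genes. H3K4me3 forms 2 blocks at MICA and MICB, 1 narrow block at ULBP1 and PVR, and a block that runs downstream at NCR3LG1. At ULBP2 it forms a block at the start, with another of 5 of the 8 antibodies upstream of it. It covers at most 3 of the 8 antibodies at the starts of ULBP3, RAET1G and RAET1L and 0 at that of RAET1E.

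The authors' values give each promoter peak a rank within its own list. For MICA the median percentile of its peak was 68.0 within 5 H3K4me3 lists, 99.6 within 4 H3K4me2 lists and 98.7 within 5 H3K4me1 lists. ULBP2 stood at 59.3, 98.8 and 91.2 in the same order, and NCR3LG1 at 80.3, 98.0 and 91.3. Of the genes with few H3K4me3 peaks, ULBP3 stood at 52.8 (2 lists), 81.7 and 76.2 and RAET1L at 26.8 (1 list), 59.9 (3 lists) and 73.4. Lists of different length hold different peaks, so these ranks describe each list and not a change between marks.

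The corrected lists sorted the same promoters in another way. Corrected H3K4me3 had a peak in 1 of the 10 windows, that of ULBP2, against 18.1% of all promoters, and it covered 32.7% of that window. This peak was 654 bases wide, reached 551 bases upstream and 102 downstream of the ULBP2 start, and its authors' value of 30.5 exceeded 94.0% of the peaks of the list. Corrected H3K4me2 had peaks at 9 of the 10 (55.1% of all promoters), all but RAET1L, and corrected H3K4me1 at all 10 (71.4% of all). The corrected H3K4me2 windows of MICA, MICB, NCR3LG1 and PVR were wholly covered, those of ULBP2, ULBP1 and RAET1G at 76.9%, 74.6% and 74.5%, and those of RAET1E and ULBP3 at 30.5% and 29.1%. The corrected H3K4me2 peaks of ULBP2 (value 42.2), MICB (40.9) and MICA (39.6) were above 99.7%, 99.6% and 99.5% of that list. All 3 corrected lists rest on 4 of the antibodies used above, so they are not independent of those lists.

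The MIC genes had their corrected H3K4me3 at a different start. The annotated 5′ end of MICA lies 3811 bases upstream of its canonical start, and that of MICB 3264 bases upstream. A corrected H3K4me3 peak of 2595 bases with an authors' value of 42.7 lay over the upstream MICA start at chr6:31398787-31401381, and 1 of 1511 bases with a value of 55.1 over the upstream MICB start at chr6:31493872-31495382. These values exceeded 96.1% and 98.9% of the peaks of that list. Both peaks ended short of the canonical starts, by 2214 bases for MICA and 2763 for MICB. A long non-coding RNA also starts within 500 bases of each of these peaks (ENSG00000288587 beside MICA and MICB-DT beside MICB), so the peaks cannot be given to 1 transcript.

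The uncorrected H3K4me3 lists covered both starts. At the upstream start, mean coverage was 91.8% ± 6.11 for MICA (86.0% to 100%) and 92.3% ± 10.8 for MICB (71.3% to 100%), with a peak in all 8 lists for each gene. H3K4me2 antibodies covered both upstream windows wholly. H3K4me1 coverage there averaged 69.8% ± 28.8 for MICA, with values of 55.8%, 100%, 57.2%, 100% and 36.2%, and 95.3% ± 10.5 for MICB (SD, n = 5). In Abcam ab12209 the upstream and canonical peaks were separate, with values of 30.5 and 23.3 for MICA and 34 and 27 for MICB. In Abcam ab8580 and EMD Millipore 07-473 a single peak of 6403 to 10434 bases joined the 2 starts of each gene, and Diagenode C15410003 joined those of MICA.

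**Figure D4:**
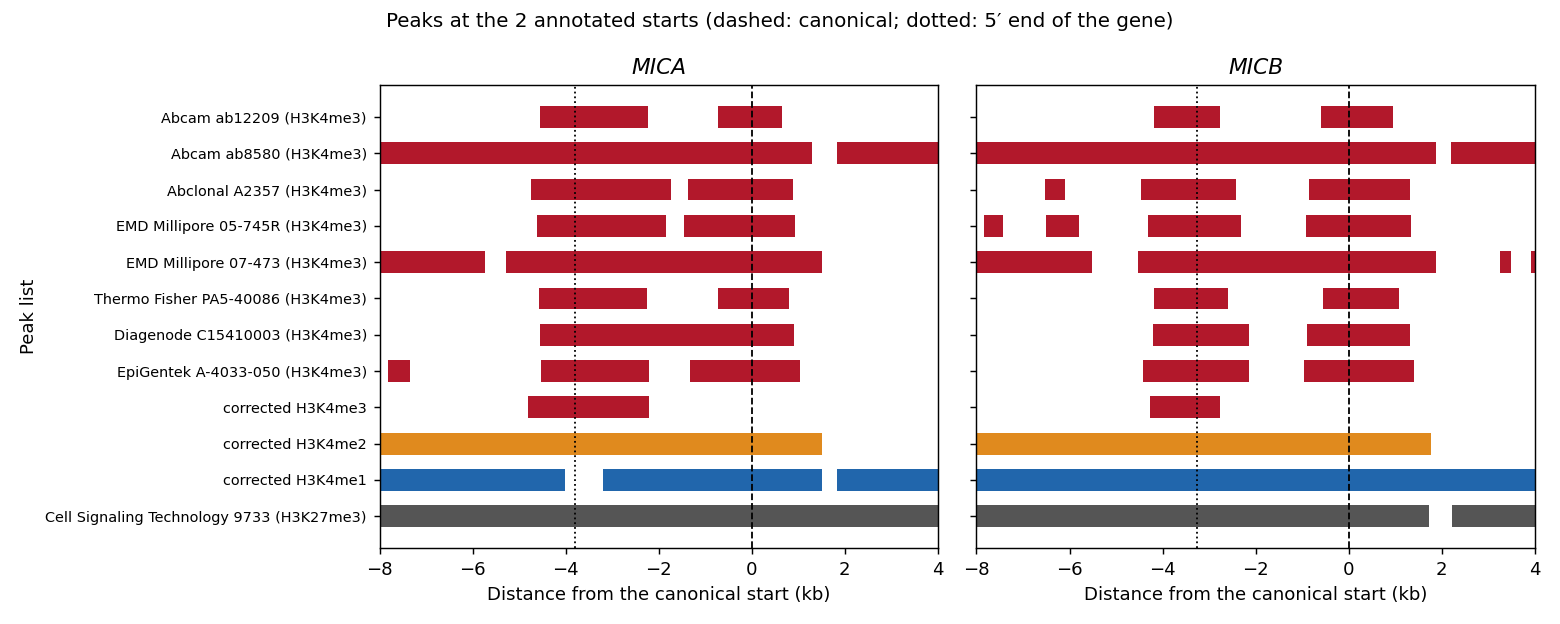
Peaks of the 8 H3K4me3 lists, the 3 corrected lists and the H3K27me3 list around MICA (left) and MICB (right), on an axis of distance from the canonical start in kb, with the canonical start dashed and the 5′ end of the gene dotted. The corrected H3K4me3 bar lies over the dotted line in both genes and stops 2.21 and 2.76 kb short of the dashed line.

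Across the ULBP/RAET1 cluster, 186 kb from the end of RAET1E to the start of ULBP3 (chr6:149883179-150069121), the narrow H3K4me3 lists placed peaks at few sites. Abcam ab12209 had 4 peaks there, of which 3 lay within 500 bases of an annotated start, those of ULBP2, ULBP1 and RAET1K, a relative annotated as a pseudogene and as a non-coding RNA. The RAET1K peak had a value of 29.5, against 19.1 at ULBP1 and 14.2 at ULBP2 in this list, and lay in all 8 H3K4me3 lists. The remaining peak, chr6:149925771-149926341, lay 2650 bases upstream of RAET1G with no annotated start within 500 bases, and 7 of the 8 H3K4me3 lists overlapped it. The nearest Abcam ab12209 peak was 19.7 kb from the RAET1L start, 27.7 kb from that of RAET1E and 63.3 kb from that of ULBP3.

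The corrected H3K4me3 list had 18 peaks in the cluster with a median width of 323.5 bases, and 2 of them lay within 500 bases of an annotated start. These were the ULBP2 peak and a peak at a long non-coding RNA (ENSG00000235972) and a processed pseudogene (PHB1P1). The ULBP2 peak overlapped all 8 H3K4me3 lists. Of the rest, the peak at chr6:149893828-149894069 overlapped 2 lists and every other peak overlapped 1. Over the whole cluster H3K4me3 peaks covered 1.35% to 63.4% (median 2.45%, mean 11.6% ± 21.4, n = 8), H3K4me2 peaks 57.2%, 87.8%, 6.56% and 22.5%, and H3K4me1 peaks 74.2%, 95.8%, 76.2%, 65.0% and 41.0%. The H3K4me3 maximum was Abcam ab8580, with EMD Millipore 07-473 next at 15.2%. Over all the chromosomes read, the H3K4me1 lists cover 723 to 1593 Mb, Abcam ab8580 769 Mb, EMD Millipore 07-473 165 Mb and the narrow H3K4me3 lists 18.7 to 42.9 Mb. These differences between lists are thus also present outside the cluster. From MICA to MICB (111 kb, chr6:31399784-31511124) the H3K4me3 lists covered 5.31% to 68.1% with a median of 8.07%, and all 4 Abcam ab12209 peaks there lay at annotated starts of the MIC genes.

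**Figure D5:**
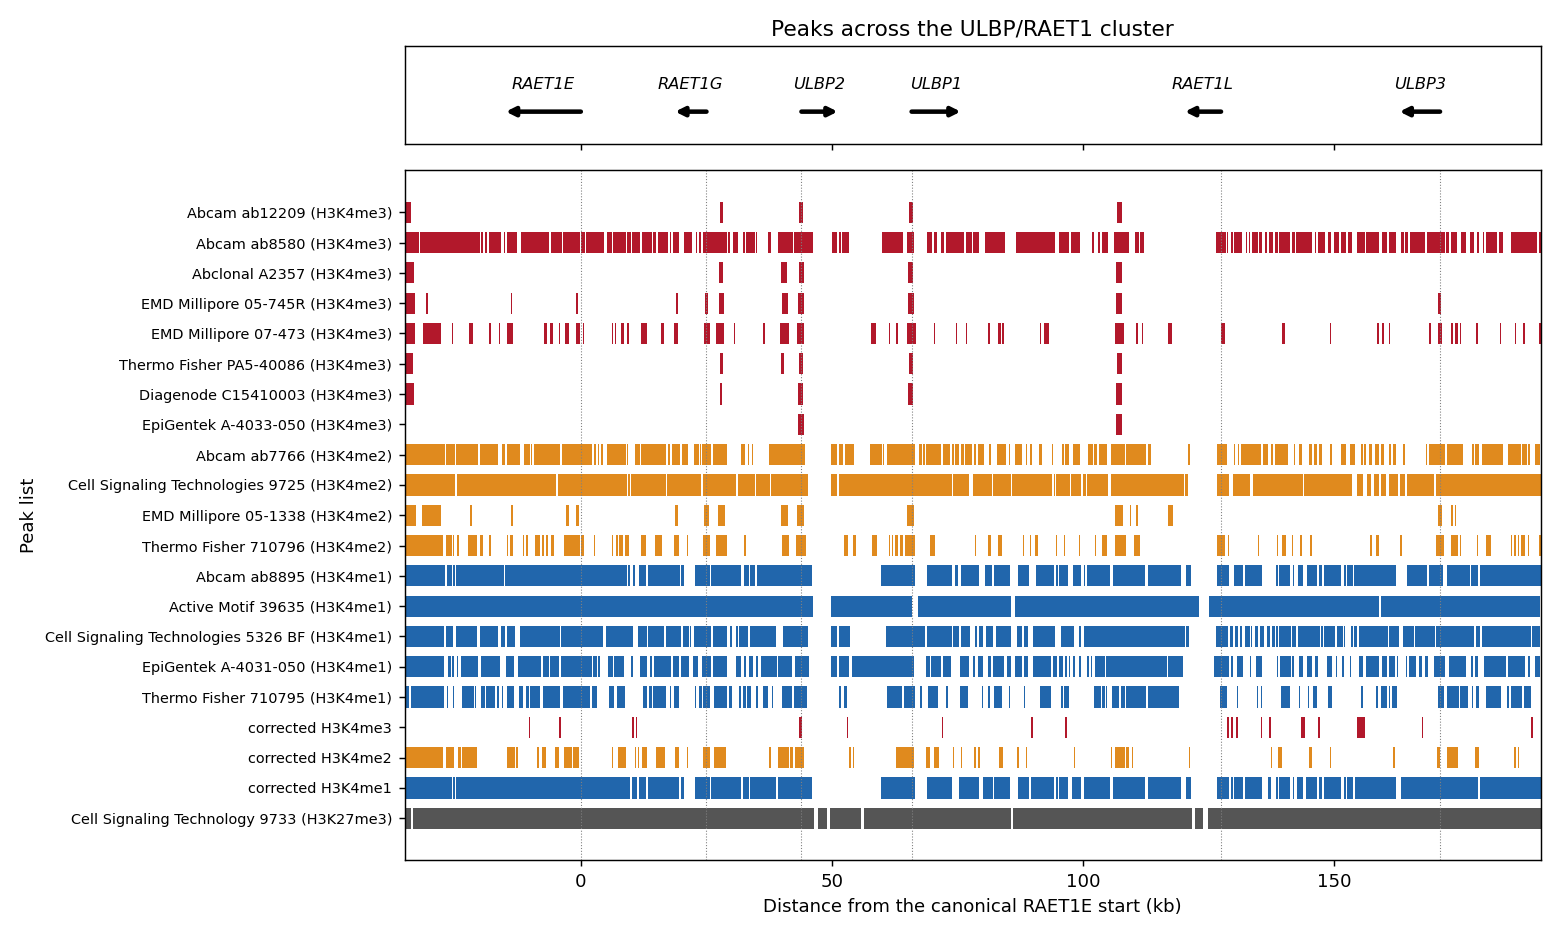
Peaks of 21 lists (rows, H3K4me3 on top) across the ULBP/RAET1 cluster, with genes as arrows above and their canonical starts as dotted lines, on an axis of distance from the RAET1E start in kb. The narrow H3K4me3 lists share bars at the ULBP2 start (43.9 kb) and, but for EpiGentek A-4033-050, at that of ULBP1 (65.8 kb). Apart from EMD Millipore 05-745R they have none within 1 kb of RAET1E (0 kb), RAET1G (25.0 kb), RAET1L (127 kb) or ULBP3 (171 kb).

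Every one of the 10 windows was wholly under an H3K27me3 peak, which held for 62.8% of all promoters (73.9% had such a peak over at least 1 base), and wholly under an H3K9me3 peak, which held for 97.1%. The H3K27me3 peaks were 12092 bases wide at MICB, 29212 at ULBP1, 39900 at NCR3LG1, 68971 at MICA and 93488 at PVR, where the peak ended 1081 bases downstream of the start. ULBP2, RAET1E and RAET1G shared 1 peak of 79828 bases, and ULBP3 and RAET1L shared 1 of 452545 bases. Windows with H3K4me3 peaks in all 8 lists and windows with peaks in 2 or 3 lists were thus covered alike by H3K27me3. Each of these marks has 1 list with positions only, so no spread and no strength can be given. A mark on some copies in every cell and on every copy in some cells cannot be told apart in bulk chromatin, nor can 2 marks on the same and on different copies.

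Other genes of NK recognition were read from lists chosen with earlier results known, and their counts stand beside 26.5% of all promoters lower in H3K4me3 than in H3K4me1, 11.3% higher and 52.9% with a peak in at least 5 of the 8 H3K4me3 lists. Among 13 inhibitory ligands, among them class I HLA and other molecules that restrain NK cells, 9 were lower in H3K4me3 than in H3K4me1 and 0 higher, and 4 had a peak in at least 5 of the 8 H3K4me3 lists. HLA-E, which binds the inhibitory receptor NKG2A, had peaks in all 17 H3K4 lists and was lower in H3K4me3 by the difference of -17.08 points (exact permutation test, adjusted p = 0.0430), and HLA-B, a classical class I gene, had peaks in 3 of the 17. Among 10 genes of class I assembly, 4 were lower and 1 was higher. B2M, the shared light chain, was higher in H3K4me3 by 27.43 points (means 99.7% ± 0.919 and 72.2% ± 27, exact permutation test, adjusted p = 0.0395). PDIA3, a chaperone of peptide loading, was lower by the difference of -60.16 points (adjusted p = 0.0346, same exact test) with an H3K4me3 peak in 1 list.

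Of 13 other activating and adhesion ligands, 5 were lower, 1 was higher and 7 had peaks in at least 5 H3K4me3 lists. BAG6, a nuclear protein that NKp30 can bind when released, had peaks in all 17 lists, and PDGFD, a growth factor bound by NKp44, in 2. All 13 regulators and sheddases of NKG2D ligands had peaks in at least 5 H3K4me3 lists (52.9% of all promoters), with 0 lower (26.5% of all) and 6 higher in H3K4me3 (11.3% of all). ADAM17, a protease that sheds MIC and ULBP proteins, differed by 34.69 points (adjusted p = 0.0115, exact permutation test). The 4 death receptors gave 0 calls either way, TNFRSF10A with peaks in all 17 lists and FAS in 12.

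The markers matched the labelled cell line in part. Of 10 erythroid genes, 9 had peaks in at least 5 H3K4me3 lists (52.9% of all promoters did), with HBG1 (fetal globin) in all 17 H3K4 lists. Of 10 NK and T cell markers 2 did, with CD3D in 16 lists and KLRD1 in 1.

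Each gene also had close matches elsewhere in the genome by its coverage over the 17 H3K4 lists. Taking the mean absolute difference in coverage as the measure, the nearest gene on another chromosome was TMEM243 for MICA (1.27 points), MTMR9 for MICB (2.60), TMEM54 for ULBP1 (9.88), TESK2 for ULBP2 (3.16) and AARD for ULBP3 (4.05). CHRNA6 was nearest to RAET1E (1.75), NXPH1 to RAET1G (3.57), CCL1 to RAET1L (2.40), PDLIM4 to NCR3LG1 (3.00) and B4GALNT1 to PVR (2.60). Within the set, MICA and MICB were each other's nearest (4.48), as were NCR3LG1 and PVR (6.41), ULBP3 and RAET1G (6.63) and ULBP1 and ULBP2 (13.8). All these distances were larger than those to the nearest outside gene.

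Parts of these windows are not unique in the genome. The share of 32-base words of the window that occur more than once in the genome was 21.4% at ULBP2, 18.9% at MICB, 15.7% at PVR, 14.8% at RAET1L, 12.0% at MICA, 11.4% at NCR3LG1 and 11.0% at RAET1G, and 2.54% to 7.56% at ULBP1, RAET1E and ULBP3. The part of repeated words in the peak calls was not tested.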

How the data were processed

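Histone marks in K562 cells were measured by ChIP-seq with 17 H3K4 antibodies and 1 antibody each for H3K27me3 and H3K9me3. The labels name internal calibration for the H3K4 and H3K9me3 libraries but not for the H3K27me3 library. Per the submitters' processing notes, the reads were processed with tools that include Bowtie2, SAMtools, bedtools and MACS2 on GRCh38 (hg38). No versions or calling settings are given in the sources used here. For 17 of the 22 lists a signal value per peak was deposited by the authors, whose unit no header names. It was used to rank peaks within a list, and the other 5 lists have positions only. Read depth behind the peaks is unknown, so no interval or detection limit was computed, and a window without a peak does not show an unmodified promoter. The other 6 of the 25 samples, which are inputs or mouse cells, were not used here.

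Peaks of a list were merged, and the percent of bases under a peak within 1 kb of the canonical start (GENCODE release 44) was computed for 19962 protein-coding genes. A peak was counted as present when at least 1 base overlapped. Antibodies, grouped by the target in the labels, were compared with a two-sided exact permutation test over every regrouping (1287 for H3K4me3 against H3K4me1, 495 against H3K4me2, 126 for H3K4me2 against H3K4me1), with Benjamini-Hochberg adjustment over all promoters and a threshold of 0.05. The procedure was tested on simulated data. Upstream sequences were compared by global alignment. Python 3.11.15, numpy 2.4.6, pandas 2.3.3, scipy 1.17.1, biopython 1.88 and matplotlib 3.10.9 were used. The genes, the other gene lists and the tests were chosen with earlier results of these data known. From each other list the gene with a promoter peak in the most and that in the fewest of the 17 H3K4 lists were named (ties by symbol), and for each of the 10 genes the most alike gene on another chromosome. Some items that this rule names are not reported here. Alternatives were another window, start or overlap rule, a higher value per peak, a single input, a single cycle number and leaving out each antibody.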

Additional observations from a re-analysis of the deposited data

Results flagged for a closer look

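In 30 groups of antibodies (10 genes by 3 targets), 6 held 1 antibody far from the others for its group. Chance would mark about 1 group in 20, but coverage cannot exceed 100%, and where all the others stand at 100% any lower value is marked, so that rate does not hold for 3 of the 6 (MICB for H3K4me1, NCR3LG1 and PVR for H3K4me2). At RAET1L most of the H3K4me3 values stand at 0 and most of the H3K4me1 values at 100%, so the rate cannot be relied on there either. Thermo Fisher 710795 was the lowest of the H3K4me1 antibodies at MICB (41.0%, where the other 4 gave 100%) and at RAET1L (58.3%, where the next gave 94.0%). Abcam ab8580 was the highest of the H3K4me3 antibodies at RAET1L (94.0%, where the next gave 39.8%). EpiGentek A-4033-050 was the lowest for H3K4me3 at NCR3LG1 (0, where the next gave 60.4%). EMD Millipore 05-1338 was the lowest for H3K4me2 at NCR3LG1 (91.0%) and at PVR (76.9%), where the other 3 antibodies gave 100%.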

How the results depend on the processing

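No paired analysis was possible because the labels give the antibodies no replicate numbers. H3K4me3 against H3K4me1 gave 7546 promoters and 7 of the 10 genes past the threshold. A window of 2.5 kb either side gave 11407 promoters (11208 lower, 199 higher, against 5298 and 2248 with 1 kb) and 10 genes. A window of 0.5 kb gave 6909 promoters (3829 lower, 3080 higher) and 3 genes. Scoring a peak as present or absent gave 0 promoters and 0 genes, libraries beside AR16 gave 4169 promoters (2343 lower, 1826 higher) and 2 genes, and libraries of 8 cycles gave 0 and 0, a design with fewer samples in which the smallest p is 0.00794. Leaving out 1 antibody gave 3468 to 8618 promoters and 2 to 7 genes. Leaving out Abcam ab8580 and EMD Millipore 07-473, chosen after seeing the data, gave 6649 promoters and 8 genes here, and 5460 promoters and 8 genes for H3K4me3 against H3K4me2, which gave 0 otherwise. The MICA difference turned to 22.00 points with the upstream start. The MICB difference turned to -3.04 there, to -33.22 with the 2.5 kb window (adjusted p = 0.0326, exact permutation test, range over the 21 alternatives 0.0326 to 1.00) and to -7.96 without Thermo Fisher 710795 (6.78 at the highest with another antibody left out). The cause was not tested. Over the 21 alternatives the call was lost in 2 for RAET1E, 3 for NCR3LG1, 6 for RAET1L, 13 for ULBP3 and PVR, 14 for RAET1G and 16 for ULBP2. By ratio to the main count, the counts of genes with a peak per list changed most for corrected H3K4me3. It was at 3 of the 10 with the upstream start (MICA, MICB and ULBP2) or the 2.5 kb window (MICA, ULBP2 and RAET1L). The RAET1L peak had an authors' value of 7.01 and overlapped 1 of the 8 H3K4me3 lists. Corrected H3K4me3 was at 0 of the 10 when 50% of the window had to be covered. The mean counts for H3K4me3, H3K4me2 and H3K4me1 were also lower under that 50% rule, by a smaller ratio.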

Other observations

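Over whole gene bodies, H3K4me3 peaks covered a median of 27.9% of the MICA body and 20.1% of that of MICB, 12.0% of NCR3LG1, and 0 of ULBP3, RAET1E, RAET1G and RAET1L, over 8 antibodies. H3K4me1 peaks covered a median of 90.1% of RAET1E and 89.6% of PVR, but 33.8% of ULBP2 and 23.6% of RAET1L, over 5 antibodies. H3K27me3 peaks covered 78.0% of the RAET1L body and 80.3% of that of ULBP2, against 97.0% to 100% of the other 8. The H3K27me3 list covers 2029 Mb over all the chromosomes read and the H3K4me1 lists 723 to 1593 Mb, so high shares are not particular to these genes.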
